A study of Mus musculus with 4 samples.

Results

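Male germ cells of the neonatal mouse testis were examined that carried germ cell transcripts but few or none of the transcripts that mark a stage of spermatogonial development. They were selected on measured counts, from barcodes with at least 8000 unique molecular identifiers (UMIs, each 1 captured RNA molecule) and at most 20% mitochondrial UMIs. A germ cell had *Ddx4* and *Dazl* UMIs summing to 10 or more, and less than 0.3% of its UMIs from the stromal genes *Col1a1*, *Col1a2*, *Col3a1* and *Dcn*, and likewise from the Sertoli cell genes *Cst12*, *Cst9*, *Rhox8*, *Amh* and *Aard*. A cell was kept if it had under 4 UMIs of the stem cell genes *Gfra1*, *Etv5*, *Lhx1*, *Id4* and *Ret* together, 0 of *Neurog3*, under 2 of *Kit* and under 3 of *Meioc*. Of 1699 germ cells, 235 met these limits, out of 17567 barcodes with at least 8000 UMIs in both libraries. The other 1464 are called stage-marked.

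Spermatogonia of this age range from stem cells, which receive the growth factor GDNF through the receptors encoded by *Gfra1* and *Ret*, through progenitors that switch on *Neurog3*, to differentiating cells that respond to retinoic acid and use the receptor encoded by *Kit*. *Meioc* is needed for the entry into meiosis. *Zbtb16* and *Sox3* encode transcription factors of undifferentiated spermatogonia, and the RNA helicase gene *Ddx4* and the RNA-binding protein gene *Dazl* are used throughout the early germ line. CNOT3 is a subunit of CCR4-NOT, the complex that shortens the poly(A) tails of mRNAs.

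The mice were 8 days old (P8). The methods give the control mice as *Cnot3* flox/flox and the Cnot3-cKO mice as *Cnot3* flox/flox with *Ddx4*-creER, a Cre recombinase made in germ cells that acts after 4-hydroxytamoxifen (4OHT), while the labels call the control samples wild-type. By the methods, neonatal mice of both genotypes received 4OHT from P1 to P3. The labels instead give a last day that goes up by 1 from sample to sample, P1 and P2 for control and P3 and P4 for Cnot3-cKO, and which of these holds is not settled here. Testis cells were sorted for CD9 and THY1, surface proteins of spermatogonia, so shares of cells depend on that gate. The 2 samples of each genotype are merged in 1 matrix that does not tell their barcodes apart, so 1 control library is compared with 1 Cnot3-cKO library. There are no replicates and no test of any difference, and all intervals given are 95% intervals that cover counting error only.

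The control library held 176 of the cells without stage genes among 1196 germ cells (14.7%, exact Clopper-Pearson interval 12.8 to 16.9%), and the Cnot3-cKO library 59 among 503 (11.7%, 9.05 to 14.9%). The intervals of these shares overlapped, and the order turned with at most 10% mitochondrial UMIs (12.9% and 13.5%). It also turned under the study's filters (42 of 220 cells, 19.1%, and 19 of 60, 31.7%). Those filters were recomputed here on barcodes with at least 8000 UMIs. They removed germ cells over 41990 UMIs or 6720 genes in control, and over 38198 UMIs or 6334 genes in Cnot3-cKO. Cells over 10% mitochondrial UMIs were removed as well. The depth of the cells thus changed too. As a share of all barcodes with at least 8000 UMIs and at most 20% mitochondrial UMIs, they made up 2.13% of 8254 in control and 0.643% of 9178 in Cnot3-cKO, while all germ cells made up 14.5% and 5.48%. The smaller number in Cnot3-cKO thus stood beside a smaller number of germ cells of every kind. No barcode of these cells was found in both libraries. Of 18 barcodes with at least 8000 UMIs that occurred in both, 1 was that of a germ cell in each.

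The limits are counts of UMIs, so depth set part of the membership. Cells without stage genes had a median of 35042 UMIs in control (lowest 8119, highest 67056) and 36868 in Cnot3-cKO (9280 to 69087), and stage-marked cells had medians of 43402 and 47121. Between 8000 and 12000 UMIs, 17 of 24 control germ cells and 6 of 9 Cnot3-cKO germ cells met the limits. From 45000 to 70000 UMIs, 32 of 451 (7.10%) and 15 of 219 (6.85%) did. None of the 45 control and 46 Cnot3-cKO germ cells over that depth did, which allows shares of up to 7.87% and 7.71%. When every stage-marked cell was thinned to 8000 UMIs, 70.7% of the control cells and 68.2% of the Cnot3-cKO cells would have met the limits too. At that depth the limits did not set most stage-marked cells apart from the cells described here. Counts of the 8 genes still differed, but the rule chose the cells for low counts of these genes, which set that difference in advance. No stage UMI was left in 57.4% of the control cells without stage genes and 21.7% of the stage-marked ones. In Cnot3-cKO the shares were 64.4% and 20.9%.

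**Figure D1:**
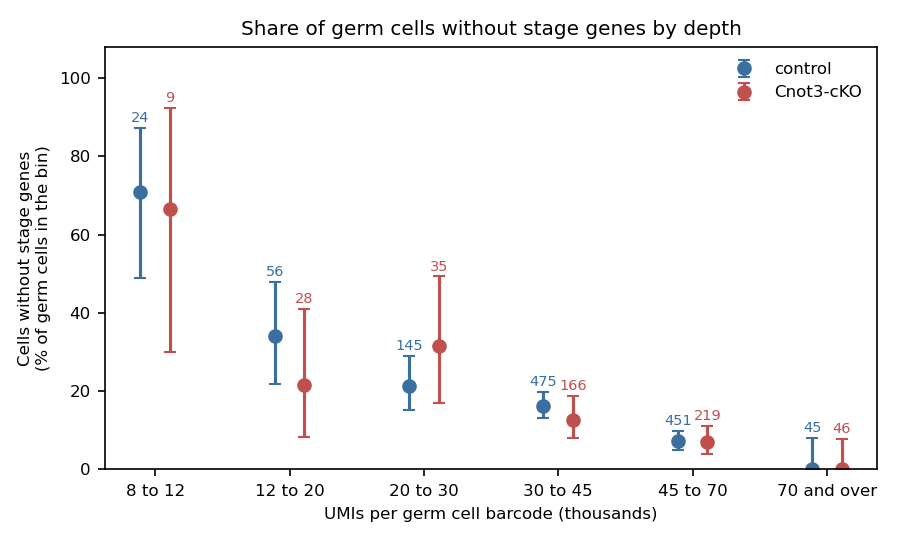
Share of germ cells that met the limits on stage genes (y axis, percent) by UMIs per cell (x axis), for control (blue) and Cnot3-cKO (red), with exact 95% intervals as bars. The number over each bar counts the germ cells in that bin. The share is 70.8% in control and 66.7% in Cnot3-cKO in the shallowest bin and 0% in both in the deepest.

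Most of these cells were not empty of stage genes. A cell with no UMI of any of the 8 stage genes occurred 19 times in control and 8 times in Cnot3-cKO. At 1 UMI below a limit stood 35 control cells for the stem cell genes, 54 for *Kit* and 16 for *Meioc*, and 9, 22 and 6 in Cnot3-cKO. Just outside, excluded by a single limit and exactly at it, were 35 control cells for the stem cell genes, 58 for *Neurog3*, 37 for *Kit* and 10 for *Meioc*, and 23, 4, 13 and 3 in Cnot3-cKO. Of the excluded cells in control, 437 reached the stem limit, 313 the *Neurog3* limit, 432 the *Kit* limit and 115 the *Meioc* limit, with 298, 44, 161 and 51 in Cnot3-cKO, and a cell could reach several.

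The germ cell label was checked with *Zbtb16* and *Sox3*, which the limits did not use. *Zbtb16* had at least 1 UMI in 81.2% of the control cells (median 3 UMIs, 0 to 19) and 76.3% of the Cnot3-cKO cells (median 2, 0 to 16). *Sox3* had one in 85.2% (median 2, 0 to 18) and 66.1% (median 2, 0 to 14). After thinning to 8000 UMIs, 88 of the 176 control cells held a *Zbtb16* UMI and 88 a *Sox3* UMI, against 0.447% and 0.715% of 1119 Sertoli cell barcodes (median depth 13179 UMIs), and in Cnot3-cKO 49.2% and 40.7% against 0.335% and 0.168% of 1790 (12707 UMIs). *Dazl*, which the rule used, ranged from 6 to 113 UMIs in control and 9 to 120 in Cnot3-cKO. *Uchl1*, a ubiquitin hydrolase abundant in spermatogonia, was found in all 235 cells, with a median of 35 UMIs in both libraries.

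Of the markers of other cell types, those of Sertoli cells were the most abundant. Over the cells of a library, the Sertoli genes not used by the rule had a median of 199 counts per 1000000 UMIs (CPM) in control and 206 in Cnot3-cKO, with ranges of 0 to 2980 and 0 to 2280 CPM. In summed UMIs these Sertoli genes were higher in Cnot3-cKO, with a median log2 ratio of 0.37 over the 7 with at least 50 UMIs and 4 intervals above 0. The Sertoli genes of the rule had per-cell medians of 47.5 and 86.0 CPM and a median log2 ratio of 0.75, and the part of Sertoli RNA in the results below was not tested. The stromal genes not used had medians of 66.9 and 49.3 CPM. The median was 0 for the myoid, Leydig, endothelial, macrophage and erythroid markers in both libraries. The defining Leydig genes *Cyp17a1*, *Hsd3b1* and *Insl3* and the endothelial gene *Emcn* had 0 UMIs in both libraries, and the Sertoli gene *Fshr* had 0 in control. A single control cell held 97.1% of the macrophage UMIs of that library and reached 6271 CPM of those 6 genes. From the Sertoli genes of the rule and the profile of barcodes with at most 100 UMIs, free RNA was estimated at 5.78% of UMIs in control and 5.87% in Cnot3-cKO. Scrublet called 9 of 176 and 4 of 59 of the cells doublets. Cells over 10% mitochondrial UMIs made up 61.4% in control and 27.1% in Cnot3-cKO (55.1% and 37.8% of stage-marked cells), and the part of this difference in the results below was not tested.

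*Cnot3* itself had 68.9 CPM in the control cells (407 UMIs, exact Poisson interval 62.4 to 76.0) and 45.04 CPM in the Cnot3-cKO cells (94 UMIs, 36.4 to 55.1). As a log2 ratio, Cnot3-cKO over control, this was -0.61 (-0.95 to -0.29). In cells of 8000 to 20000 UMIs the level was 58.7 CPM in control (28 UMIs) and 74.2 CPM in Cnot3-cKO (12 UMIs), with overlapping intervals. It was 66.5 and 49.9 CPM from 20000 to 45000 UMIs, and 77.0 and 33.2 CPM in deeper cells. A *Cnot3* UMI was found in 79.5% of the control cells and 69.5% of the Cnot3-cKO cells, at 0 to 10 and 0 to 6 UMIs per cell. In stage-marked cells the level was 71.5 CPM and 38.5 CPM, with a log2 ratio of -0.89 (-1.004 to -0.78). Sertoli cell barcodes, in which this Cre is not made, had 60.7 and 64.9 CPM, and barcodes with at most 100 UMIs 47.5 and 43.3 CPM. The kit counts 3′ ends, and the position of the floxed part is not given in the sources used here, so a UMI of *Cnot3* does not show an intact gene.

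Among the cells without stage genes, *Zbtb16*, *Sox3* and *Stra8* were combined in every way. *Stra8*, a gene switched on by retinoic acid before differentiation and meiosis, had a UMI in 63.6% of the control cells (0 to 74 UMIs) and 54.2% of the Cnot3-cKO cells (0 to 50). All 3 genes were found in 80 control cells (45.5%) and 17 Cnot3-cKO cells (28.8%). *Zbtb16* and *Sox3* without *Stra8* marked 50 (28.4%) and 16 (27.1%). None of the 3 was found in 4 cells and 2 cells. Cells with all 3 had medians of 39160 and 41939 UMIs, those with none 21767 and 31709, so these combinations also follow depth.

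The limits, as counts of UMIs, were strictest for the deepest cells. The rule chose these cells against the marked stages, so the values given for them only describe what it left. Of 32 control cells with at least 45000 UMIs, 31 held *Zbtb16*, all held *Sox3*, 29 held *Stra8* and 27 held *Upp1*, a uridine phosphorylase gene of progenitors. Of the 15 Cnot3-cKO cells, 14, 13, 8 and 12 did. The progenitor genes not used by the rule (*Sox3*, *Nanos3*, *Rarg*, *Upp1*, *Ddit4* and *Lin28a*) summed to 447 CPM in these control cells (320 CPM in 464 stage-marked cells of the same depth) and to 371 CPM in the Cnot3-cKO cells (210 CPM in 250). The stem cell genes not used by the rule, such as *Nefm*, *Dusp6* and *Mcam*, summed to 73.0 CPM against 122 CPM in control, and to 92.5 CPM against 298 CPM in Cnot3-cKO.

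The same order was found over all cells without stage genes. The rule used this contrast, so these values are a description. *Rarg*, the retinoic acid receptor gamma of undifferentiated spermatogonia, had 24.4 CPM against 16.5 CPM in stage-marked control cells and 16.3 against 7.69 CPM in Cnot3-cKO. *Sox3* had 104 against 87.5 CPM and 81.5 against 62.2 CPM. All 6 progenitor genes were above the stage-marked level in both libraries, with medians of 0.21 and 0.50 on the log2 scale. In the 19 control cells with no stage UMI at all, the median was -0.38, there against all control germ cells with a stage UMI. Of the stem cell genes not used, 1 of the 11 with at least 50 UMIs was above it in control and 1 of 10 in Cnot3-cKO, with medians of -0.82 and -1.64. The 8 differentiation genes had medians of -0.15 and -0.05, and the 12 germ identity genes, which include the piRNA pathway genes *Mael* and *Piwil2*, -0.04 and -0.07.

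The naming rule gave 10 genes farthest below the stage-marked level. *Dusp6*, a phosphatase gene induced by ERK signalling, had 6.44 CPM against 16.99 CPM in control and 5.27 against 38.6 CPM in Cnot3-cKO. *Etv4*, a transcription factor gene downstream of GDNF and FGF signals, had 9.32 against 19.3 CPM and 12.5 against 32.3 CPM. *Tcl1*, a coactivator of AKT, had 8.64 against 21.0 CPM and 10.1 against 27.4 CPM, and *Foxc2*, a forkhead gene, 3.22 against 15.3 CPM and 7.19 against 28.1 CPM. *Fst*, which encodes the activin-binding protein follistatin, had 18.6 against 31.6 CPM and 14.4 against 59.5 CPM. *B4gat1*, *Rasgrp2*, *Slc9a3r1*, *H2-T23* and *Upf3b* complete the 10.

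It gave as many farthest above that level. The log2 ratios of the antisense gene RP24-570C10.5 were 1.38 in control and 1.499 in Cnot3-cKO, from 3.39 and 6.23 CPM in the cells without stage genes, and those of *Gbp2*, an interferon-induced GTPase gene, 1.01 and 1.48, from 4.24 and 7.19 CPM. *Hmgn5*, a nucleosome-binding protein gene, had 152 CPM against 87.0 CPM in control and 82.9 against 57.1 CPM in Cnot3-cKO. *Psmd7*, a proteasome subunit gene, had 450 against 358 CPM and 413 against 331 CPM. *Phlda2*, an imprinted gene, had 42.9 against 28.5 CPM and 52.7 against 29.7 CPM, and *Ogt*, the gene of the enzyme that adds GlcNAc to proteins, 113 against 83.9 CPM and 98.2 against 74.0 CPM. *Rarg*, *Lgals2*, *Ifi27l2a* and *Brd1* were the others. Among the ratios of the genes named above or below that level, 8 of 259 values in control and 8 of 257 in Cnot3-cKO turned sign under other processing. Past 2-fold, with an interval that leaves out 0, lay 68 of 13347 genes above (0.509%) and 145 below (1.09%) in control, and 58 of 12063 above (0.481%) and 263 below (2.18%) in Cnot3-cKO.

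Set beside the marked classes one by one, the cells without stage genes were nearest to different classes in different genes. In control, *Zbtb16* had 122 CPM in them, 158 CPM in cells with *Neurog3*, 143 CPM in cells with 4 or more stem UMIs and 48.8 CPM in cells with 2 or more of *Kit*. *Upp1* had 61.5 CPM, against 111, 69.7 and 9.01 CPM in the same order of classes. *Dmrtb1*, a gene of the step from mitosis to meiosis, had 23.2 CPM, against 11.8, 3.82 and 60.8 CPM. *Dusp6* had 6.44 CPM, against 8.28, 35.5 and 4.84 CPM. In Cnot3-cKO, *Zbtb16* had 81.0 CPM, against 106, 98.2 and 39.2 CPM, and *Dmrtb1* 22.5 CPM, against 13.4, 2.37 and 52.6 CPM. For *Dmrtb1* the cells lay between the *Neurog3* and the *Kit* classes in both libraries, while *Nefm* and *Dusp6* were far under the stem class.

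**Figure D2:**
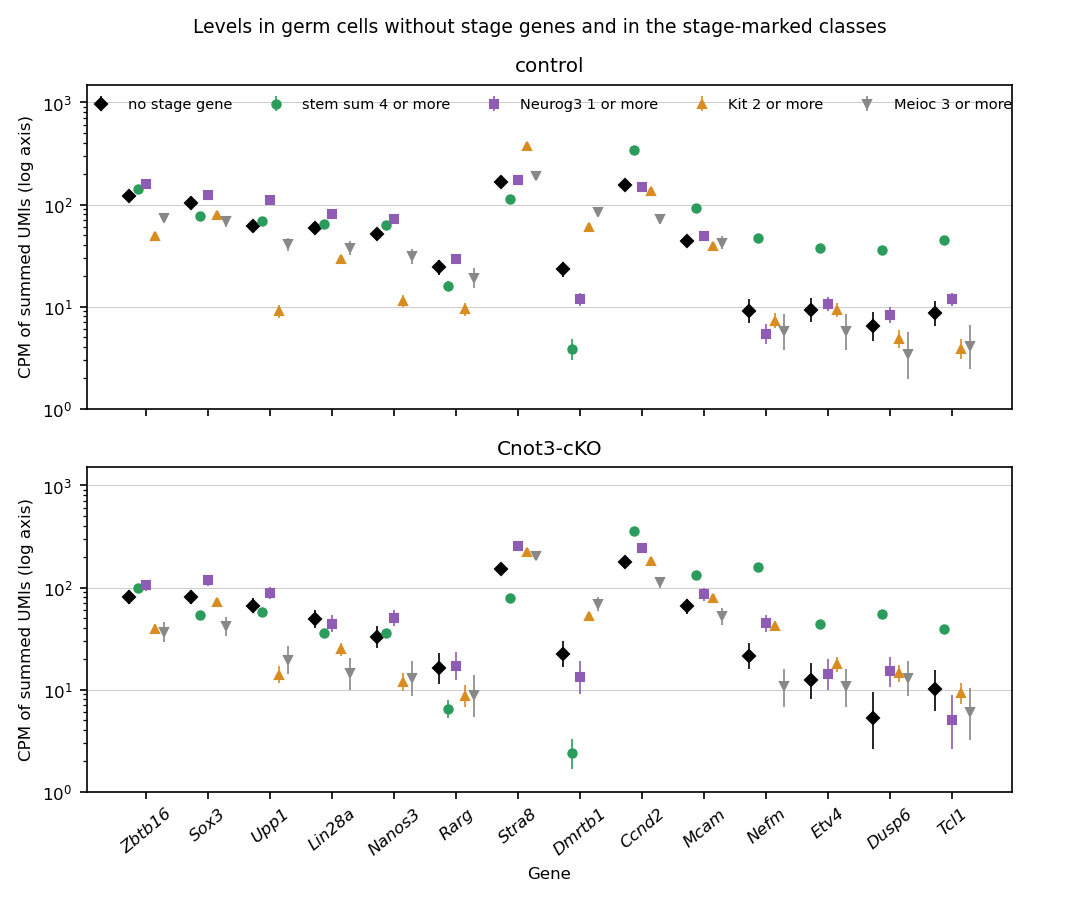
CPM of summed UMIs (log axis) of 14 genes that the limits did not use, in cells without stage genes and in the 4 stage-marked classes, which overlap, for control (top) and Cnot3-cKO (bottom). Bars are exact 95% Poisson intervals. The black diamonds are close to the *Neurog3* and stem classes for *Zbtb16* and *Nanos3*, and far under the stem class for *Nefm*, *Etv4*, *Dusp6* and *Tcl1*.

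Neighbours in expression were taken within each library from cells thinned to 8000 UMIs, over 2000 variable genes without those of the rule. Of the 15 nearest neighbours of the control cells without stage genes, 22.6% were such cells themselves, which make up 14.7% of germ cells. *Neurog3* cells made up 31.8% of the neighbours (26.2% of germ cells), cells with 4 or more stem UMIs 28.6% (36.5%), *Kit* cells 29.3% (36.1%) and *Meioc* cells 8.79% (9.62%). In Cnot3-cKO the neighbours were 15.6% such cells (11.7% of germ cells), 14.01% *Neurog3* cells (8.75%), 51.2% cells with 4 or more stem UMIs (59.2%), 32.5% *Kit* cells (32.0%) and 12.9% *Meioc* cells (10.1%). All the marked classes were thus among the neighbours, and *Neurog3* cells were above their share in both libraries. A cell can be in several classes.

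Between the genotypes, the G2 and M phase genes were higher in the Cnot3-cKO cells without stage genes, and most undifferentiated genes were lower. Both lists moved the same way in stage-marked cells. Of 9405 genes that had 50 or more UMIs in the libraries summed, 100 (1.06%) were more than 2-fold higher in Cnot3-cKO and 168 (1.79%) more than 2-fold lower, each with an interval that leaves out 0. Whatever their size, 16.3% of the genes had an interval above 0 and 12.8% one below 0. The median log2 ratio over all these genes was 0.003, with -0.72 at the 5th percentile and 0.63 at the 95th.

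All 14 genes of the G2 and M phase list were higher in Cnot3-cKO, each with an interval above 0, and 4 of them passed 2-fold (against 1.06% of all genes). Their median log2 ratio was 0.85. *Ccnb1*, the cyclin that drives entry into mitosis, had 153 CPM in control (903 UMIs, 0 to 35 per cell, median 3.5) and 444 CPM in Cnot3-cKO (926 UMIs, 0 to 57 per cell, median 11), a log2 ratio of 1.54 (1.40 to 1.67). In the 19 and 8 cells with no stage UMI at all this ratio was -0.48. *Aurka*, a kinase of the spindle poles, had 21.3 and 57.0 CPM, *Ccna2*, the cyclin of S and G2 phase, 114 and 241 CPM, and *Plk1*, a mitotic kinase, 17.3 and 34.5 CPM. *Cdc20*, which activates the anaphase-promoting complex, was not on the list and had the highest lower limit of all genes, with 118 and 403 CPM and a log2 ratio of 1.78 (1.63 to 1.92).

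Per cell, the 14 genes summed to a median of 1304 CPM in control (267 to 4903) and 2605 CPM in Cnot3-cKO (584 to 5751), and the ranges overlapped. Stage-marked cells had medians of 1705 and 2476 CPM, so the per-cell median of the cells without stage genes was lower in control and higher in Cnot3-cKO. In summed UMIs the cells without stage genes were not higher in Cnot3-cKO, with 2800 CPM against 2842 CPM in stage-marked cells. There 6 of the 14 genes were above the stage-marked level, with a median log2 ratio of -0.07. In stage-marked cells the median log2 ratio of the 14 genes between genotypes was 0.55. Whether it differs from 0.85 was not tested. The S phase list, with the replication licensing genes *Mcm2* to *Mcm7*, had a median of 0.39, with 13 of 14 genes higher, 10 with an interval above 0 (16.3% of all genes) and none past 2-fold, and the per-cell medians were 1317 and 1943 CPM.

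**Figure D3:**
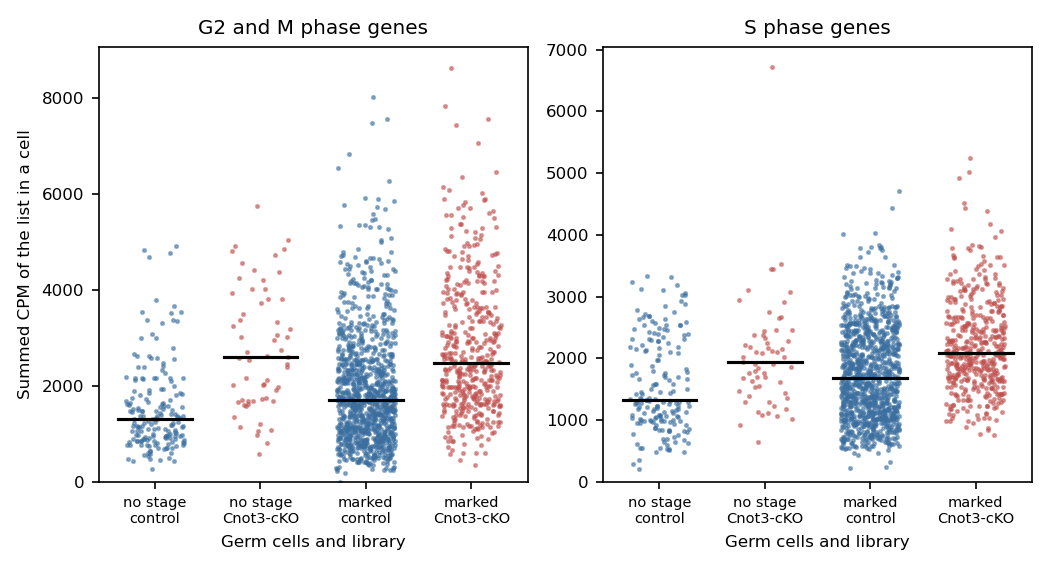
Summed CPM of the 14 G2 and M phase genes (left) and the 14 S phase genes (right) in each germ cell (points), by library and by whether the cell met the limits on stage genes. Blue points are control, red points Cnot3-cKO, and black lines medians. For G2 and M phase they are 1304, 2605, 1705 and 2476 CPM from left to right.

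Of 9 targets of p53 with at least 50 UMIs, 6 were higher in Cnot3-cKO (50.3% of all genes). An interval above 0 was found for 4 (16.3% of all genes) and one below 0 for none. The median log2 ratio was 0.25, and in stage-marked cells it was 0.53. Past 2-fold upward lay 2 targets (1.06% of all genes). These were *Ccng1* with 47.1 and 129 CPM (log2 ratio 1.46, 1.21 to 1.70) and *Cdkn1a*, which encodes the cell cycle inhibitor p21, with 5.25 and 13.9 CPM (1.40, 0.62 to 2.18). A *Cdkn1a* UMI was found in 13.1% of the control cells and 33.9% of the Cnot3-cKO cells. *Bax* had 300.9 and 313 CPM and *Mdm2* 74.4 and 88.2 CPM. In stage-marked cells the *Cdkn1a* ratio was 2.25 (2.06 to 2.45), and the intervals overlapped. Whether the ratios differ was not tested.

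Undifferentiated and progenitor genes lay mostly below control. Of 11 undifferentiated genes with at least 50 UMIs, 9 were lower, 6 with an interval below 0 (12.8% of all genes), and none passed 2-fold (median -0.23). *Zbtb16* had 122 and 81.0 CPM (log2 ratio -0.59, -0.84 to -0.35), *Pou5f1*, the gene of OCT4, 49.0 and 27.3 CPM, and *Foxo1*, a transcription factor gene of stem cell upkeep, 129 and 103 CPM. The 6 progenitor genes had a median of -0.30, with *Nanos3* at 51.5 and 33.1 CPM and *Upp1* at 61.5 and 66.6 CPM. Of the retinoic acid genes, *Rara* had 24.7 and 16.8 CPM and *Stra8* 168 and 153 CPM (-0.13, -0.31 to 0.06). The differentiation list had a median of -0.09 and the prospermatogonial list of -0.02. In stage-marked cells the undifferentiated genes had a median of -0.23 and the progenitor genes of -0.58.

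Of the 10 meiotic genes with at least 50 UMIs, 8 were higher in Cnot3-cKO (50.3% of all genes), 6 with an interval above 0 (16.3%), and the median was 0.47. *Smc1b*, a meiotic cohesin gene, had 227 and 459 CPM (1.01, 0.89 to 1.13), *Sycp1*, of the synaptonemal complex, 352 and 538 CPM and *Hormad1*, of the chromosome axis, 44.2 and 75.7 CPM, while *Syce2* had 232 and 205 CPM. With no stage UMI at all, the list median was -0.060. In stage-marked cells it was 0.40. The germ identity list had a median of 0.08. The stem cell genes left too few UMIs for most members, and of 3 with enough, *Nefm* had 9.15 and 21.6 CPM, *Mcam* 44.2 and 65.6 CPM and *Tspan8* 9.99 and 9.10 CPM.

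Among the glutathione and antioxidant genes, 4 of 12 had an interval above 0 (16.3% of all genes) and none passed 2-fold (median 0.17). The list median in stage-marked cells was 0.34. *Mt1*, which encodes a metal-binding metallothionein, had 707 and 1380 CPM (0.96, 0.89 to 1.03), *Gsta4* 67.3 and 110 CPM and *Gclc*, of glutathione synthesis, 95.4 and 144 CPM, while *Gpx4* had 348 and 336 CPM and *Gsr* 255 and 256 CPM. *Gstm1*, *Gstm2*, *Gstm6* and *Gstm7*, close paralogs whose reads the counting may not tell apart, had log2 ratios from -0.50 to 0.24, and each interval held 0. The other CCR4-NOT subunits had log2 ratios from -0.57 for *Cnot4* to 0.43 for *Cnot11*, with a median of -0.08 over all 11. Immediate early and stress genes had a median of 0.37, with *Fos* at 11.2 and 19.6 CPM and *Hspa5* at 273 and 325 CPM.

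**Figure D4:**
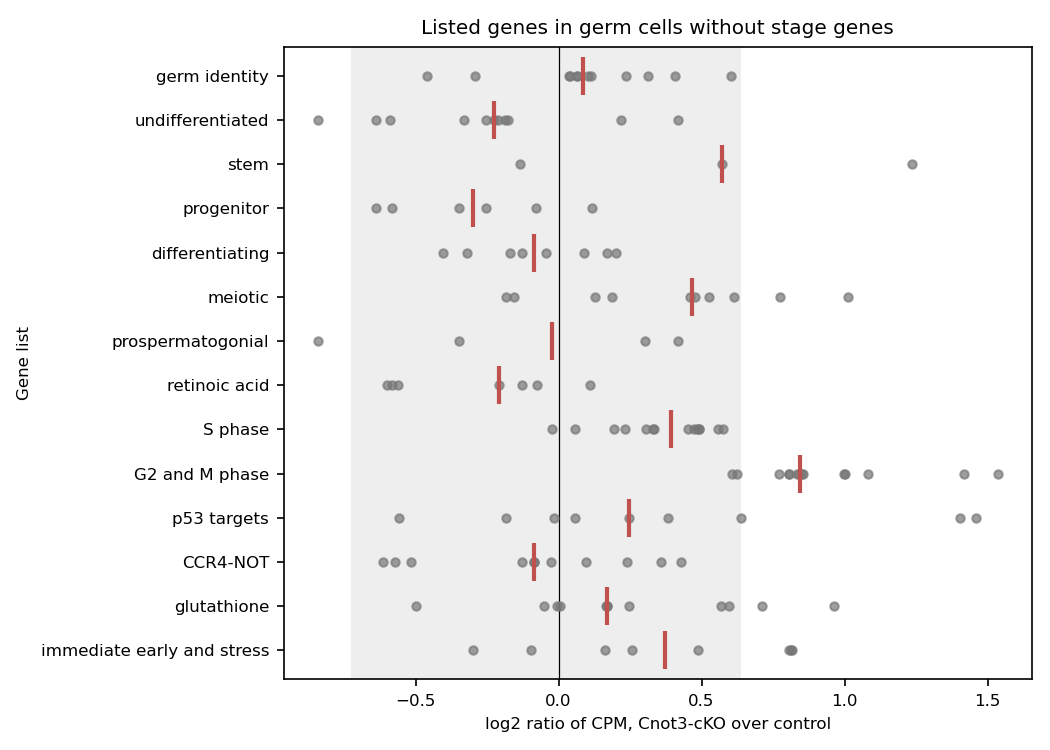
Log2 ratio of CPM, Cnot3-cKO over control, of each listed gene with at least 50 UMIs (grey points) and the list median (red bar) in cells without stage genes. The grey band spans the 5th to 95th percentile of all genes, -0.72 to 0.63. The G2 and M phase genes lie near or beyond its upper edge, from 0.61 to 1.54.

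The genes highest in Cnot3-cKO by the lower limit of the interval further included *Esr1*, the gene of estrogen receptor alpha, with 4.40 and 21.6 CPM and a UMI in 24 of 176 and 31 of 59 cells. *Kif18b*, a kinesin of the mitotic spindle, had 8.64 and 26.4 CPM, *Cep135*, of the centriole, 5.93 and 22.5 CPM, *Fam64a*, a mitotic regulator, 7.28 and 21.6 CPM, and the actin-capping gene *Capg* 34.6 and 85.3 CPM. *Lgals7*, a galectin gene, had 5.93 and 22.5 CPM, *Rhd*, of the Rh family, 9.99 and 33.5 CPM, and *Gstt2*, a glutathione transferase gene, 6.95 and 21.1 CPM. Of these genes, *Cep135* differed far less in stage-marked cells, with a log2 ratio of 0.28 (0.07 to 0.49) against 1.93 (1.26 to 2.60). After thinning to 8000 UMIs, 897 control and 362 Cnot3-cKO cells met the limits, and 721 and 303 of them were stage-marked at full depth. Over all cells that met the limits after thinning, the *Cep135* ratio was -0.021.

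Lowest in Cnot3-cKO was the gene listed as RP23-41J14.2 (GRCm38 chr12:111406809-111412090, protein coding in GENCODE M21), with 29.6 CPM in control (175 UMIs in 74 cells) and 2.40 CPM in Cnot3-cKO (5 UMIs in 5 cells), a log2 ratio of -3.63 (-5.27 to -2.38). *Cdc42bpb*, a kinase gene on the same chromosome at chr12:111292976-111377718, had 38.8 and 15.3 CPM. *Fgfr1*, a receptor for the FGF signals that support stem cells, had 24.2 and 7.67 CPM with a UMI in 51.1% and 18.6% of cells (-1.66, -2.51 to -0.91). *Rps4x*, an X-linked ribosomal protein gene, had 398 and 215 CPM, and *H2afx*, the gene of the histone variant that marks DNA breaks, 53.5 and 24.0 CPM. *Ube2r2*, of the ubiquitin pathway, had 136 and 71.4 CPM and *Pou2f2*, a POU factor gene, 33.0 and 13.9 CPM. *Fthl17f*, *Lhfpl2*, *l7Rn6*, *Cthrc1* and *Txndc16* were also among the 12. With no stage UMI at all, the log2 ratios of *Lhfpl2*, *Rps4x* and *Cthrc1* were above 0. *Txndc16* had 41.5 and 18.7 CPM in these cells but 38.6 and 35.4 CPM in stage-marked cells.

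**Figure D5:**
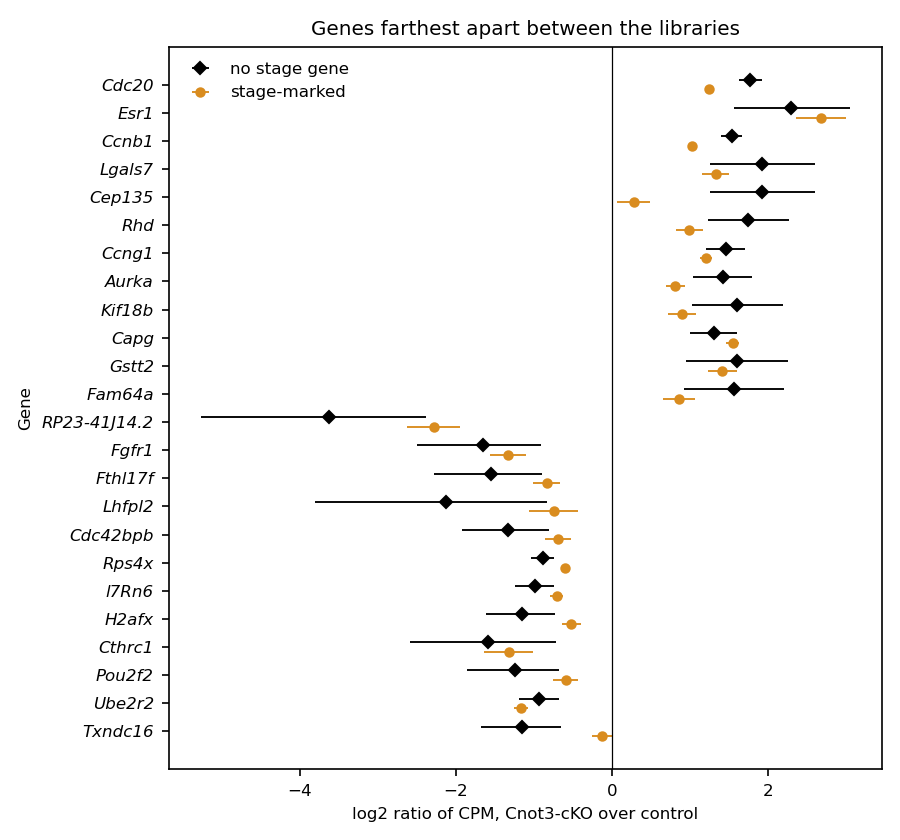
Log2 ratio of CPM, Cnot3-cKO over control, with exact 95% intervals for counting error, of the 12 genes highest and 12 lowest by the nearer interval limit, in cells without stage genes (diamonds) and stage-marked cells (circles). The 2 kinds of cell have ratios of the same sign for all 24 genes, and *Cep135* and *Txndc16* lie nearest to 0 in stage-marked cells.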

How the data were processed

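The files hold deposited UMI counts without normalization, which the authors obtained by running Cell Ranger 3.0.1 (genome build mm10) on 10x Genomics 3′ libraries run on 2 instruments, in 1 merged matrix per genotype that lists every barcode. The deposited gene and barcode lists were used as names. Control held 181550221 UMIs and Cnot3-cKO 168770743. The sort, injections and genotypes are from the labels and the study's methods. Cells were chosen by the limits stated in the report, and doublets (Scrublet in scanpy 1.11.5) stayed in. Members and gene lists were chosen with earlier results of these data known.

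UMIs were summed per library over the cells and given as CPM, with exact Poisson intervals, exact conditional intervals for ratios and Clopper-Pearson intervals for shares. A gene needed 50 UMIs over both sides, and genes of the rule were left out of counts. Beside listed genes, the text names the 12 with the highest lower and 12 with the lowest upper limit between genotypes, and 10 each against stage-marked cells by the worse library, leaving out genes with over 20% of UMIs in 1 cell and mitochondrial genes. No p-value was computed. A count of 0 was read as allowing the exact upper limit. The ratio step was tested on simulated data. Of the gene identifiers, 99.8% matched GENCODE M21. Alternatives were other depth, mitochondrial, germ, somatic and stage limits, thinning, doublets, cell weights, free RNA, the study's filters and the UMI minimum.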

Additional observations from a re-analysis of the deposited data

Results flagged for a closer look

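In 3 listed genes the cells without stage genes lay on opposite sides of the stage-marked cells in the 2 libraries, with both intervals leaving out 0. The log2 ratio for *Stra8* was -0.34 in control and 0.29 in Cnot3-cKO. For *Sycp1* it was -0.10 and 0.15, and for *Ccnb1* -0.25 and 0.26. With 1 library per genotype the difference between the libraries was not tested, and the limits that chose the cells bear on this contrast.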

How the results depend on the processing

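No paired analysis was possible because both samples of a genotype are merged in 1 matrix, and for the same reason no sample could be left out. The share of germ cells without stage genes depended on how the limits met depth. It was 12.5% in control with at least 20000 UMIs per cell. In control and Cnot3-cKO it was 1.59% and 1.59% with no UMI of any stage gene, 48.2% and 46.1% with limits as rates per 20000 UMIs, 75% and 72.0% after thinning to 8000 UMIs, and 19.1% and 31.7% under the study's filters. Cnot3-cKO was the higher under the study's filters and with at most 10% mitochondrial UMIs (12.9% and 13.5%). The log2 ratio of *Cnot3* stayed within its interval under every alternative run. Genes more than 2-fold higher in Cnot3-cKO numbered 221 with rates (28 of them among the 100), 59 with the study's filters (9 shared), 208 with a minimum of 20 UMIs and 22 with 200. Genes more than 2-fold lower numbered 94 with a mitochondrial limit of 10% (38 shared with the 168), 90 with no stage UMI (0 shared), 90 after thinning (28 shared), 78 with the study's filters (2 shared) and 20 with a minimum of 200 UMIs. With no stage UMI, which leaves 19 and 8 cells, the sign turned for the meiotic list between genotypes (-0.060). It turned too for the progenitor list in control (-0.38), there against all germ cells with a stage UMI. Between genotypes it also turned for *Ccnb1* (-0.48), *Lhfpl2* (0.80), *Rps4x* (0.061) and *Cthrc1* (0.059). After thinning, with the limits applied anew to the thinned cells, it turned for *Cep135* (-0.021). Over all alternatives, 8 of 259 values of the genes named against stage-marked cells turned sign in control, and 8 of 257 in Cnot3-cKO. The cause was not tested. Leaving out the cell with macrophage RNA, chosen after the data were seen, left both counts within 1.5 times.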
